A study of Mus musculus with 4 samples.

Results

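A set of 10 genes of the pathway that carries the signal of leukemia inhibitory factor (LIF) were followed between mouse embryonic stem cells at day 0 and epiblast-like tissue at day 3. The 10 genes were the receptor genes Lifr, Il6st and Osmr, the kinase gene Jak1, the transcription factor gene Stat3, the feedback genes Socs2, Socs3 and Cish, and the target genes Bcl3 and Junb. They were chosen by name, with earlier results of these data known. The Affymetrix array held 29 probe sets assigned to 1 of these symbols alone, out of 45101 probe sets and 18194 genes in all. The value given for a gene is that of its brightest probe set on average over the 4 arrays. The study measured total RNA on 4 arrays, 2 of each day. Day 0 samples were stem cells and day 3 samples came from SFEBq culture, in which dissociated stem cells quickly re-aggregate and float in medium without serum. The labels named no strain, cell line, genotype or medium, and did not say whether LIF was present on either day. Nothing stated that the duplicates were separate cultures, and the p-values may thus reflect technical spread alone.

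LIF binds the LIF receptor, which pairs with gp130, the shared receptor subunit of the interleukin-6 cytokine family that Il6st encodes. Janus kinases bound to the receptor chains then phosphorylate Stat3, which enters the nucleus and binds DNA sites related to the palindrome TTCNNNGAA. Mouse embryonic stem cells are commonly kept in medium with LIF, and Stat3 activity is known to help them self-renew. Among the genes that Stat3 switches on is Socs3, whose protein binds gp130 and Janus kinases and dampens the signal, so that its transcript is widely used as a readout of the pathway.

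Because the genes include known Stat3 targets, their promoter windows are given first. RefSeq windows of build GRCm38.p6, from 250 bases before to 50 bases after a gene's start, were found for 9 of the 10 genes, 10 windows in all. Socs2 was the gene without an entry. The motifs searched were TTCNNNGAA and the same palindrome with 4 free bases in place of 3, each of which reads the same on both strands. TTCNNNGAA was found in 2 of the 10 windows, those of Socs3 and Cish, and in 8.3% of 32851 windows of the same length. The longer motif was found in 0 of the 10 windows and in 6.95% of all windows. The Socs3 window held 1 match, TTCTTAGAA, from base -154 to base -146 before the start. The Cish window held 2 matches, TTCCTGGAA from base 1 and TTCTTGGAA from base 12 counted from the start, and 0.457% of all windows held 2 or more. A match is a description of the letters and not a measured binding site. The sequences shown are those of Socs3 and Bcl3, the 2 genes with the largest falls, and of Cish, which had 2 matches and no called difference. Matches to TTCNNNGAA are in capitals.
Socs3, 250 bases before the start, chr11:117969367-117969616, minus strand: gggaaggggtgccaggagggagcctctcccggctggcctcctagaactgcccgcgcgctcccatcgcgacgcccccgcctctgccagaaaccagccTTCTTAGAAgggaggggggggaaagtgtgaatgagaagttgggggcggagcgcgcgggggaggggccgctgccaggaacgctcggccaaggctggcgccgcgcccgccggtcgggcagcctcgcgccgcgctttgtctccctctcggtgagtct
Bcl3, 250 bases before the start, chr7:19822756-19823005, minus strand: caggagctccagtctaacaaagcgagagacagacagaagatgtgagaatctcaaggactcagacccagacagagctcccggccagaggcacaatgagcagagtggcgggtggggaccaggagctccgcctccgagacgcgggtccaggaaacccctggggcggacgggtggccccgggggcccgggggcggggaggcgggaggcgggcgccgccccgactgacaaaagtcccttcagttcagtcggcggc
Cish, first 30 bases from the start, chr9:107296659-107296688, plus strand: TTCCTGGAAagTTCTTGGAAatctgtcaaa

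The pathway genes went down or stayed near their day 0 level, and 0 of the 10 rose. At day 3, 8 were called lower at an adjusted p under 0.05 and 2, Osmr and Cish, were not called (limma, Benjamini-Hochberg over all genes). Over all genes 42.3% were called, with 21.4% lower and 20.9% higher. By at least 2-fold, 6 of the 10 were called lower, against 4.25% of all genes. The median difference of the 10 genes was -1.28 on the log2 scale, and that of all genes was 0.011. The genes were chosen with results of these arrays known, so these counts describe the genes and are not independent evidence of a direction. For 8 of the 10 genes the values of day 3 lay clear of those of day 0, as they did for 69% of all genes, so this share was not far from the background.

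The samples carried the markers of their labels. All 5 markers of naive stem cells were lower at day 3 and all 5 of the formative and primed epiblast were higher, among them Zfp42 at -2.54 and Fgf5 at 7.57 (log2 difference). In addition 9 of 9 markers of visceral endoderm, an extra-embryonic tissue, were higher, their mean log2 level going from 6.45 to 6.49 at day 0 to 9.80 to 9.90 at day 3, with Ttr at 4.32 above day 0. Of 8 fibroblast markers 3 were higher and 5 not called, with a mean log2 level of 4.87 to 4.92 at day 0 and 5.28 to 5.38 at day 3. Of 4 blood cell markers 1 was lower and 3 not called, and of 5 trophectoderm markers 3 were lower, 1 higher and 1 not called. The visceral endoderm markers moved with every difference described here, and their part in it was not tested. In such bulk RNA, fewer cells of a type and less RNA per cell cannot be told apart, and effects of medium, aggregation and cell state cannot be told apart either.

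**Figure D1:**
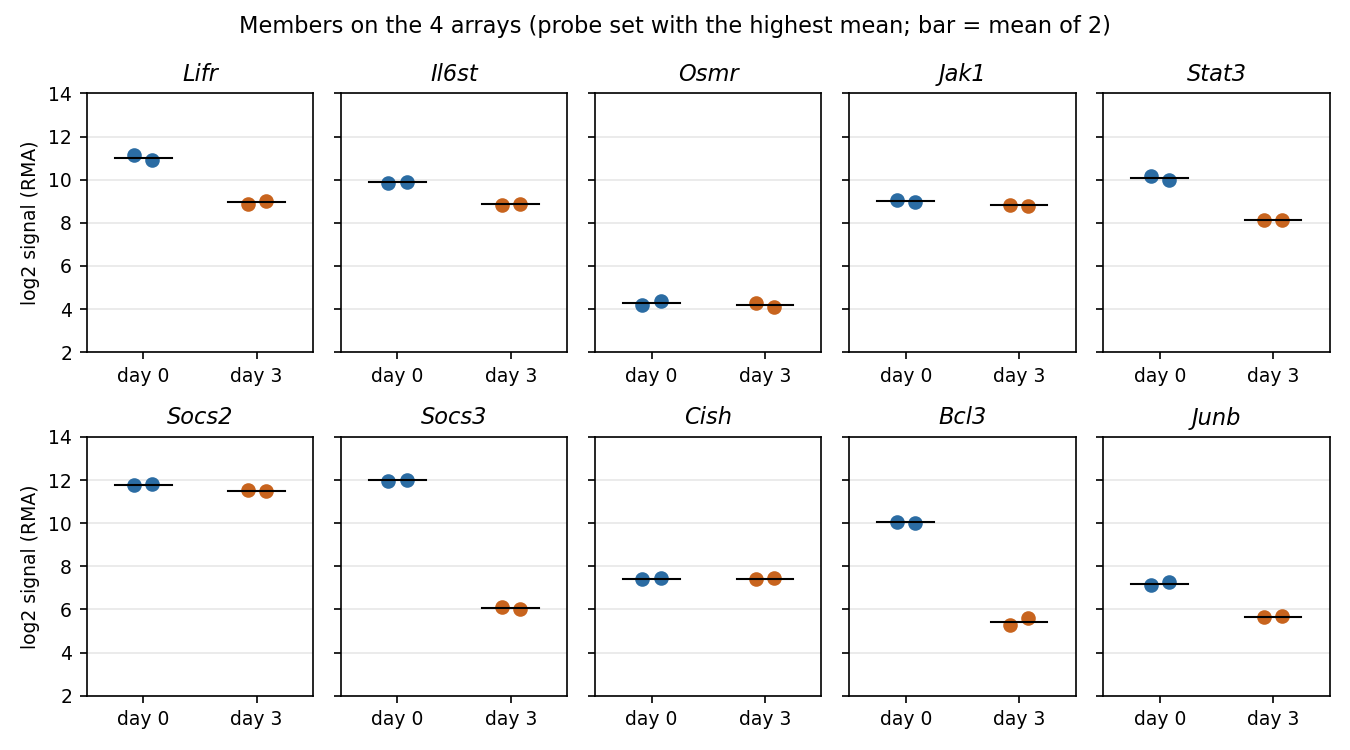
Log2 signal (y axis, RMA) of the 10 genes on the 4 arrays, 1 panel a gene, with day 0 in blue, day 3 in orange and a bar at the mean of the 2 arrays. Socs3 dropped from about 12 to about 6 and Bcl3 from about 10 to about 5, while Jak1, Socs2, Cish and Osmr lay nearly level. Signals of different probe sets cannot be compared with each other.

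Of the receptor genes, the 2 that make up the LIF receptor complex fell and the third was not called. Lifr, which encodes the LIF-binding chain, had log2 values of 11.13 and 10.91 at day 0 and 8.88 and 9.03 at day 3. Both day 3 arrays were low, and the days were separated by far more than the duplicates. The log2 difference was -2.06 ± 0.09 (SE, limma adjusted p = 2.2e-08), a 4.18-fold fall. A second Lifr probe set fell by 1.40 on the log2 scale, from 6.40 and 6.45 to 4.91 and 5.14. The third lay at 6.02 and 5.97 at day 0 and 5.68 and 5.67 at day 3, and its difference of -0.32 was not called (limma, adjusted p = 0.064 over all probe sets). From the mean of the 3 probe sets the Lifr difference was -1.26, still called, so the size of the fall depended on the probe set while its direction did not. The Lifr gene also makes a secreted form of the receptor in mice, and the annotation used here did not say which form each probe set detects.

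Il6st, encoding gp130, had log2 values of 9.84 and 9.91 at day 0 and 8.84 and 8.87 at day 3. The arrays of each day lay within 0.1 of each other and about 1 apart between days, so the fall was close to 2-fold. The log2 difference was -1.02 ± 0.07 (SE, limma adjusted p = 9.8e-07), and it lay between -1.05 and -0.99 when single arrays were left out. Of its 4 probe sets 3 were called lower, with differences of -1.63, -1.02 and -0.68, and the fourth had -0.12 (limma, adjusted p = 0.58 over all probe sets). Osmr encodes the oncostatin M receptor chain, which also pairs with gp130. Its values were 4.20 and 4.36 at day 0 and 4.28 and 4.09 at day 3, and the days overlapped. The log2 difference was -0.09 ± 0.13 (SE, limma adjusted p = 0.63). Of its 3 probe sets, 2 were below the first quartile of all probe sets on all 4 arrays and the third on 3 of 4, so a level of Osmr was not separated from background on either day.

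Jak1 was the smallest of the called falls. It encodes a kinase that is bound to gp130 and needed for its signal. Jak1 had log2 values of 9.08 and 8.99 at day 0 and 8.83 and 8.80 at day 3. The days did not overlap, but the difference of -0.22 ± 0.08 (SE) was only just called (limma adjusted p = 0.044). Leaving out day 0 replicate 1 ended the call (-0.17, limma adjusted p = 0.17), and so did leaving out day 3 replicate 1 (-0.23, limma adjusted p = 0.14) or day 3 replicate 2 (-0.20, limma adjusted p = 0.18). With the replicate number as a block the adjusted p was 0.056 (limma). When every probe set was tested, 0 of the 3 Jak1 probe sets were called, with differences of -0.22, -0.15 and -0.58, 1 of them with an unadjusted p under 0.05 (0.022, 0.16 and 0.073). The last of these had 1 array far from its duplicate, with 6.59 and 5.52 at day 3. The call for Jak1 was thus the least stable of the 8.

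Stat3, the transcription factor of the pathway and itself a known Stat3 target, fell by nearly as much as Lifr. Its log2 values were 10.16 and 9.997 at day 0 and 8.11 and 8.15 at day 3. Both day 3 arrays lay well below both day 0 arrays. The log2 difference was -1.95 ± 0.08 (SE, limma adjusted p = 2.1e-08), a 3.85-fold fall. Another Stat3 probe set of similar brightness went from 10.30 and 10.11 to 7.94 and 7.90, a log2 difference of -2.28. Among the dimmer probe sets, 1 fell by 1.01 on the log2 scale and 1 had a difference of -0.25 that was not called (limma, adjusted p = 0.16 over all probe sets). The mean of the 4 probe sets gave -1.37, also called.

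The feedback genes, whose proteins hold an SH2 domain and a SOCS box and restrain cytokine receptors, parted ways. Socs3 had log2 values of 11.98 and 11.99 at day 0 and 6.13 and 6.03 at day 3. The duplicates differed by about 0.1 at most, and the days by nearly 6. The log2 difference was -5.91 ± 0.08 (SE, limma adjusted p = 3.1e-11), a 59.9-fold fall, and it ranked 2 among the falls of all 18194 genes. Its 3 probe sets had differences of -5.91, -6.35 and -4.26, and all were called. The 2 larger values came from probe sets whose identifiers mark possible matches to other transcripts. The probe set without that mark went from 10.39 and 10.43 to 6.11 and 6.19, so the fall of Socs3 was seen with and without such probes.

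Socs2, which acts mainly on growth hormone signalling, changed little by its brightest probe set, with log2 values of 11.77 and 11.80 at day 0 and 11.52 and 11.51 at day 3. The difference was small and the duplicates were tight. It was -0.27 ± 0.05 on the log2 scale (SE, limma adjusted p = 0.0018), a 1.21-fold fall. Dimmer probe sets of Socs2 fell more, by 1.18 and by 0.89 on the log2 scale, and 5 of its 6 were called lower. From the mean of its probe sets the difference was -0.56. Single probe sets ranged from -1.18 to -0.27, so the size of the Socs2 fall depended on the choice of probe set. Cish, known chiefly as a target of Stat5, had values of 7.42 and 7.44 at day 0 and 7.40 and 7.44 at day 3. The days overlapped and the difference was -0.0065 ± 0.094 (SE, limma adjusted p = 0.97), with 1 probe set on the array.

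Of the targets, Bcl3 and Junb both fell. Bcl3, an atypical IkappaB protein that binds NF-kappaB p50 and p52 and can activate transcription, had log2 values of 10.06 and 10.02 at day 0 and 5.27 and 5.59 at day 3. The arrays of the 2 days were far apart, and the day 3 arrays differed by more than those of day 0. The log2 difference was -4.61 ± 0.11 (SE, limma adjusted p = 6.9e-10), a 24.4-fold fall, which ranked 11 among all falls. Junb, an AP-1 transcription factor that cytokines induce within minutes, had values of 7.15 and 7.25 at day 0 and 5.64 and 5.68 at day 3. Its log2 difference was -1.54 ± 0.11 (SE, limma adjusted p = 1.1e-06), a 2.91-fold fall. Each of these genes had 1 probe set, so there was no second measurement on the array.

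**Figure D2:**
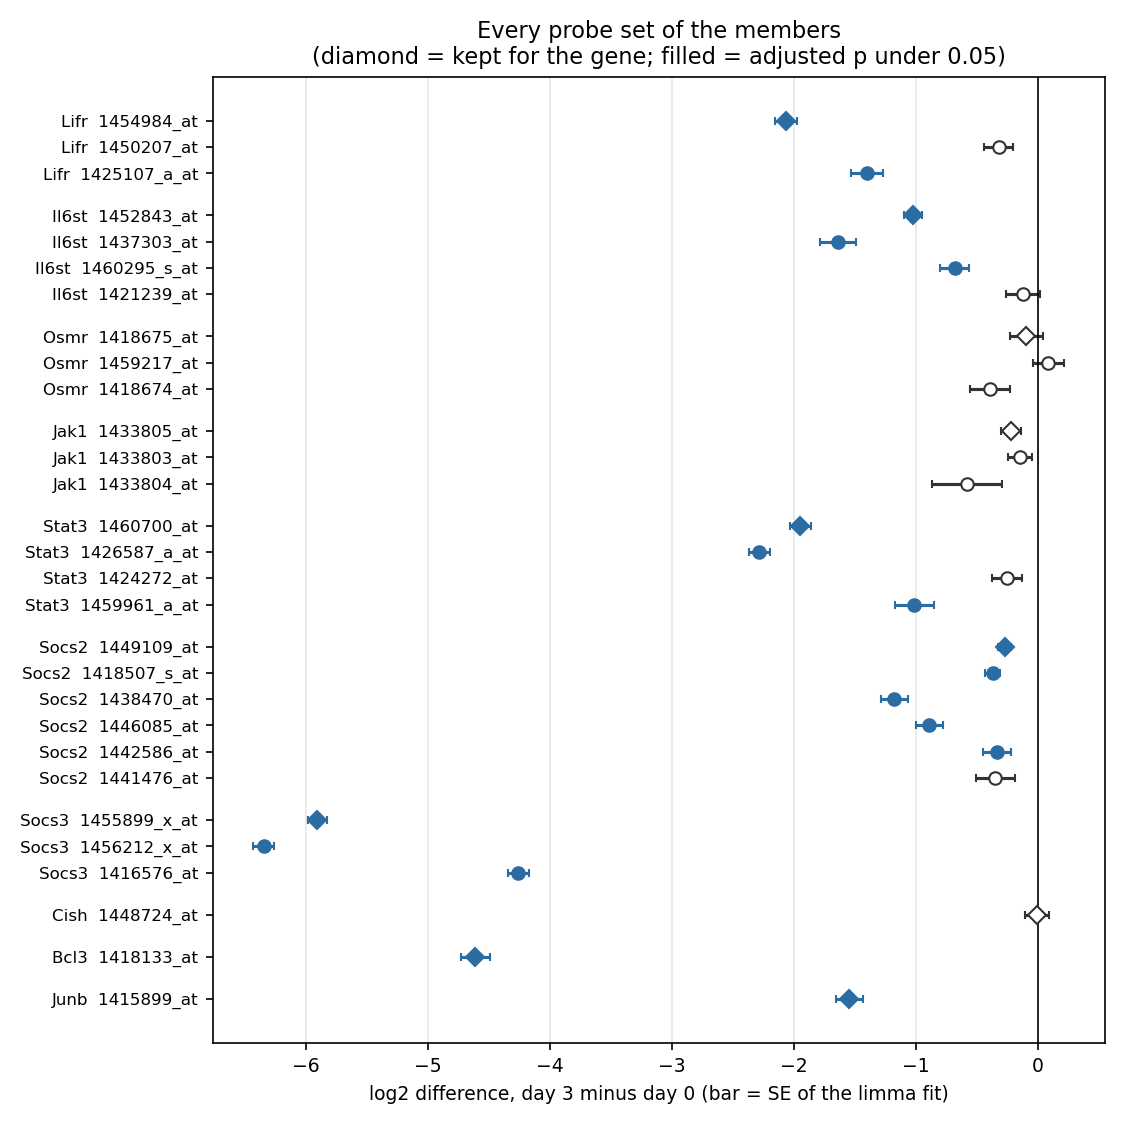
Log2 difference between day 3 and day 0 (x axis) for all 29 probe sets of the 10 genes, with the SE of the limma fit over all probe sets. Diamonds are the probe sets kept for a gene and filled symbols had an adjusted p under 0.05 over all probe sets. Of the 29, 18 were called lower, 0 higher and 11 not called, and the Jak1 diamond is open because its call was lost in this larger family of tests.

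Seen by probe set, 28 of the 29 differences were negative and 18 were called lower, against 19% of all probe sets that named 1 gene. Counting both directions, 36.1% of such probe sets were called. Probe sets of 1 gene are not independent measurements of the samples. The single positive difference, of 0.09, belonged to Osmr. Where a gene had several probe sets, those that were not called had differences from -0.58 to 0.09. Lack of a call did not always mean a small difference. The -0.58 belonged to a Jak1 probe set with an SE of 0.29, while a Socs2 probe set with -0.27 was called. All 3 Socs3 probe sets were called, as were 5 of 6 for Socs2, 3 of 4 for Il6st, 3 of 4 for Stat3 and 2 of 3 for Lifr.

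**Figure D3:**
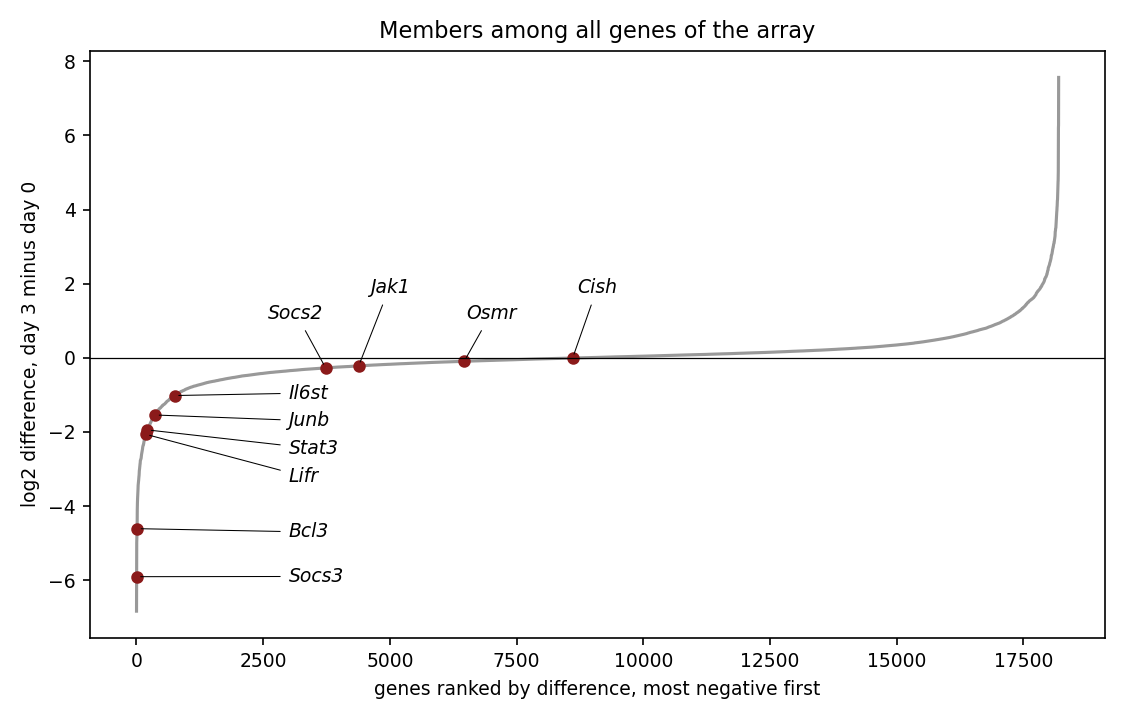
All 18194 genes in order of their log2 difference between day 3 and day 0 (y axis), the most negative first (x axis), as a grey line with the 10 pathway genes in red. Socs3 and Bcl3 stand at ranks 2 and 11, Lifr, Stat3, Junb and Il6st at ranks 182, 213, 368 and 752, and the other 4 lie on the flat middle of the curve.

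The order of the falls placed the feedback and target genes Socs3 and Bcl3 first, then Lifr, Stat3, Junb and Il6st. The smaller differences of Socs2 and Jak1 ranked 3732 and 4384 among the falls of 18194 genes. Lifr (-2.06 ± 0.09, SE) and Stat3 (-1.95 ± 0.08) were close in size, and a test between genes was not made.

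Other genes with the most similar values over the 4 arrays were found by the distance between profiles centred on each gene's mean. With 4 arrays in 2 groups, this measure mostly matches genes that changed by a similar amount. Nearest to Socs3 were Stra8 (distance 0.25 in log2 units), Calcoco2 (0.85) and Aard (0.98), with differences of -5.71, -5.07 and -4.98. Nearest to Lifr were Tubb2a, Nexmif and Btbd11 (distances of 0.036 to 0.052). Nearest to Stat3 were Reep1, Cep55 and Pdgfa (0.045 to 0.078), and nearest to Il6st were Mtus2, Kif13b and Kcnk5 (0.026 to 0.031). The genes nearest to Socs3 were farther from it than those nearest to the other 3 genes were from them. Socs3 ranked 2 among all falls, where few genes changed by a like amount, so this measure gives larger distances there.

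The other genes of the pathway were taken from 10 lists, which held 95 genes beside the 10, of which 83 were measured and 12 were not analysed here. Of these 83, 34 were called lower, 16 higher and 33 not called, with a median difference of -0.18. Over all genes 21.4% were called lower and 20.9% higher, so the number of list genes called higher was near the background. Most lists were small, and their counts are to be read beside the 42.3% of all genes that were called in either direction. The lists were chosen with earlier results of these data known, so the counts describe them and are not independent evidence. With either day 3 array left out the number called higher was 9.

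Genes for ligands and partner receptors changed little by their brightest probe sets. Of 7 measured ligands of the gp130 family 1 was lower, 1 higher and 5 not called. Lif itself had log2 values of 6.89 and 6.65 at day 0 and 6.06 and 6.21 at day 3, a difference of -0.63 ± 0.12 (SE, limma adjusted p = 0.0018), and its second probe set had -0.01, so that their mean gave -0.32. Ctf1, encoding cardiotrophin-1, was higher by 0.41, a call that ended when day 0 replicate 2 (0.23), day 3 replicate 1 (0.54) or day 3 replicate 2 (0.28) was left out. Osm, encoding oncostatin M, had -0.21 and was not called. Clcf1, a ligand of the CNTF receptor that was picked out after its values were seen, was level by its brightest probe set (0.03), while its other 2 probe sets were called higher, by 0.90 and 2.25. The last of these went from 3.55 and 3.67, below the first quartile of the arrays, to 5.87 and 5.84. Of the 3 measured receptors that pair with gp130, 0 were called (limma), and all 3 had an unadjusted p above 0.05 (0.16, 0.20 and 0.83). Their differences were -0.20 for Cntfr, -0.17 for Il27ra and 0.03 for Il6ra. A second Il6ra probe set was called lower, with -0.49 (limma, adjusted p = 0.014 over all probe sets). The mean of the Il6ra probe sets gave -0.23, not called. The second Cntfr probe set had 0.07 and was not called.

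The other Janus kinases and Stat factors did not move together. Jak3, a kinase known from lymphocytes, fell from 7.64 and 7.64 to 6.04 and 6.09 (log2), a difference of -1.58 ± 0.10 (SE, limma adjusted p = 5.3e-07). Tyk2, which like Jak1 can bind gp130, fell by 1.01, but its second probe set had 0.18 and was not called, and their mean gave -0.41. Jak2 had 0.23, not called with all arrays and called without day 0 replicate 1 (0.33). Of 5 measured Stat genes beside Stat3, 2 fell, 1 rose and 2 were not called. Stat5a fell by 1.27 on the log2 scale and Stat4 by 0.90, while Stat5b rose by 0.67. Both Stat5a probe sets were called lower, but the second Stat5b probe set had 0.14 and was not called, and the mean of the Stat5b probe sets gave 0.40. Cish, best known as a target of the Stat5 factors, had a difference of -0.0065.

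Other negative regulators did not fall as far as Socs3. The 5 other SOCS genes began at mean log2 values of 5.87 to 9.18 at day 0, against 11.99 for Socs3. Signals of different probe sets cannot be compared with each other, and whether a lower signal limited any fall was not tested. Of 5 other SOCS genes 2 rose, 1 fell and 2 were not called. Socs6 rose by 0.74 ± 0.10 and Socs5 by 0.62 ± 0.09 on the log2 scale (SE), with all of their probe sets called higher. A dimmer Socs6 probe set rose by 1.47, and the mean of the 3 Socs6 probe sets gave 0.98. Socs4 had -0.31, and its call ended when day 0 replicate 1 (-0.22), day 3 replicate 1 (-0.33) or day 3 replicate 2 (-0.29) was left out. Socs1, the closest relative of Socs3 in function and singled out after its values were seen, lay at 5.93 and 5.82 at day 0 and 5.63 and 5.93 at day 3, with no call (limma adjusted p = 0.65). Of 9 phosphatase and PIAS genes 2 were lower, 1 higher and 6 not called, the lower count being 1 with either day 3 array left out. Pias2, encoding an inhibitor of activated Stat proteins, fell by 0.69, and Ptpn11, encoding the phosphatase SHP2 that links gp130 to the MAPK branch, rose by 0.37 by 1 of its 3 probe sets, while the mean of the 3 gave 0.23. Pias3, encoding the inhibitor named for Stat3, had -0.25, not called with all arrays and called without day 0 replicate 2 (-0.39).

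The branches of LIF signalling that run through MAPK, PI3K and Src family kinases went both ways, by less than 2-fold for the brightest probe sets. Of 12 measured genes 5 were higher, 3 lower and 4 not called, the count higher being 2 without day 0 replicate 1 and 1 with either day 3 array left out. Yes1, a Src family kinase gene, fell by 0.89 ± 0.08 and Gab1, an adaptor gene, by 0.89 ± 0.06 on the log2 scale (SE), with all of their probe sets called lower. Dimmer probe sets had differences down to -1.08 for Yes1 and -1.40 for Gab1. Pik3r1, encoding the regulatory subunit of PI3K, rose by 0.68 ± 0.10, and 2 of its 4 probe sets were called, with a mean of 0.39.

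Other known Stat3 targets fell in large number. Of 20 measured, 17 were lower, 1 higher and 2 not called, with a median difference of -1.44, and 11 were lower by at least 2-fold. Over all genes 21.4% were called lower, 20.9% higher and 4.25% lower by at least 2-fold. This list was chosen with earlier results of these data known, so its counts are not independent evidence of a direction. The 1 higher gene, Cebpb, picked out by that count, encodes a transcription factor of the acute phase response. It had 0.31 and lost its call without day 0 replicate 1 or day 3 replicate 2. Large falls were those of Icam1, an adhesion molecule gene (-4.61 ± 0.08, SE), and Klf4, a Kruppel-like factor gene (-3.80 ± 0.07). Gbx2, a homeobox gene of naive stem cells, fell from 9.25 and 8.999 to 4.52 and 4.46 on the log2 scale. Its day 3 values lay near the first quartile of the arrays, where a level was not separated from background, so the measured difference of -4.64 may be smaller than the true fall. Several targets, among them Klf4, Klf5, Gbx2 and Tfcp2l1, are also genes of naive pluripotency and have other known regulators. The 2 genes not called, Lcn2 and Bcl6, had -0.17 and -0.12, and a second Bcl6 probe set fell by 0.93.

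**Figure D4:**
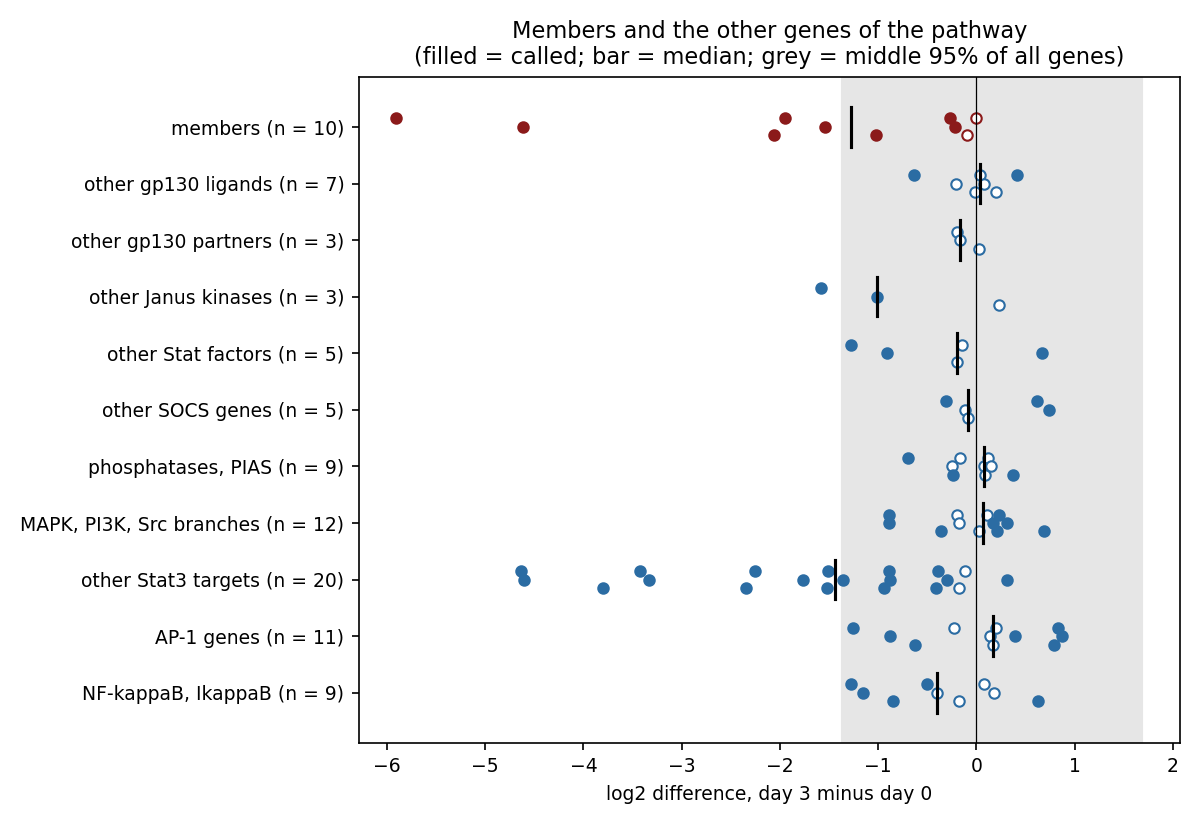
Log2 difference between day 3 and day 0 (x axis) of the 10 genes (red) and of the other pathway genes by list (blue), 1 point a gene. Filled points were called, bars are medians, and the grey band from -1.37 to 1.69 holds the middle 95% of all genes. Points left of the band are found among the 10 genes, the other Stat3 targets and the other Janus kinases.

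Relatives of the 2 targets Junb and Bcl3 were compared with them. Of 11 AP-1 genes, 4 rose, 3 fell and 4 were not called, with a median difference of 0.17, and the share called in each direction over all genes was 21.4% lower and 20.9% higher. Jdp2, encoding a repressor that pairs with Jun proteins, fell by 1.25, with its second probe set at 0.32 and not called and a mean of -0.46. Fos fell by 0.88 and Maff, encoding a small Maf protein, rose by 0.87. Jun and Jund, the other genes of the Jun family and taken here as Junb's relatives after their values were seen, had 0.79 and -0.62, so that Junb (-1.54) had the largest difference of the 3. The second Jun probe set had 0.59 and was called higher, and that of Jund had 0.10 and was not called. Of 9 measured NF-kappaB and IkappaB genes, 4 fell, 1 rose and 4 were not called, with a median of -0.40. The 1 higher gene, Nfkbiz, was named for that count and had 0.63, a call lost without day 3 replicate 1. The other 2 Nfkbiz probe sets had 0.29 and -0.15 and were not called. Nfkbie, encoding IkappaB epsilon, fell by 1.28 ± 0.11, Nfkbid by 1.15 ± 0.11 and Relb, which partners p52, by 0.85 ± 0.11 (SE). None of these 9 came near the Bcl3 difference of -4.61. Of the 9, 1 began at a mean log2 value of 11.06 at day 0 and the others at 5.44 to 9.16, against 10.04 for Bcl3. The gene at 11.06, Nfkbia, was named after its values were seen. It fell by 0.51, and all 5 of its probe sets were called lower. Signals of different probe sets cannot be compared with each other, and whether lower signals limited the other falls was not tested. The differences of the 9 genes thus cannot show whether the Bcl3 fall was particular to it.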

How the data were processed

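The deposited table held 1 log2 value per probe set and array, made by the authors with RMA in R 2.13.0, per the submitters' processing notes. RMA equalises the arrays' distributions, which hides any change in total RNA per cell, and it shrinks differences between dim signals. RMA settings and a genome build are not given in the sources used here. Of 45101 probe sets, 34958 had 1 gene symbol in the platform annotation, 932 several and 9211 none, and only the first were named. Depth has no meaning here, and the number of arrays limited the precision.

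Differences are day 3 minus day 0, fitted over all 18194 genes in R 4.3.3 with limma 3.58.1 (lmFit, eBayes with an intensity trend, no covariate), two-sided, with Benjamini-Hochberg adjustment, and called at an adjusted p under 0.05. The fit had 2 residual degrees of freedom and a prior of 8.02. Alternatives were other variance models, renewed normalization, a filter on level, other probe set choices, the replicate number as a block and each array left out. The labels do not say that the replicate numbers pair samples. Named beside the 10 genes were Lif, the 3 genes with the largest difference of each list, the 3 genes nearest to Socs3, Lifr, Il6st and Stat3, and the marker genes Ttr, Zfp42 and Fgf5. Genes outside this rule are marked as chosen after their values were seen, except Klf5, Tfcp2l1 and the 2 uncalled targets, which were also chosen then. The genes and lists were chosen with earlier results of these data known. The promoter windows are RefSeq's.
Each gene took the probe set with the highest mean over the 4 arrays, without regard to day.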

Additional observations from a re-analysis of the deposited data

How the results depend on the processing

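Of the 10 genes, Lifr, Il6st, Stat3, Socs2, Socs3, Bcl3 and Junb kept their direction and their call under every alternative run, and Osmr and Cish were called under none (Junb and Osmr were below the median level and so had no value among the brighter genes). Jak1 was called under 5 of 14. Its log2 difference was -0.22 without an intensity trend, with an unmoderated test, with the replicate block and with every probe set tested (limma adjusted p = 0.083, 0.12, 0.056 and 0.059), -0.20 after renewed quantile normalization (0.065) and -0.31 from the mean of its probe sets (0.062). It was -0.26 to -0.17 with 1 array left out. An array left alone on its day was assumed to vary like the other day. Over all genes, 1084 were lower and 1064 higher with the unmoderated test, against 3901 and 3804, and 6641 and 5967 of all probe sets. Of the probe sets of the 10 genes 18 were lower, against 8 genes. In the pathway lists the unmoderated test called 13 lower and 3 higher, against 34 and 16, having 2 degrees of freedom. With 1 array left out 9 to 14 were higher. The number of called genes of the 10 under the replicate block was 7 lower, and the block changed no other call among the 10. Same-numbered samples did not deviate together (correlation of deviations over genes -0.017). Among 30 other named genes, 350 of 377 values kept side and direction, 25 lost a call, 2 gained 1 and 0 reversed. No detection calls were used, so levels near the first quartile (4.30 to 4.33) were not separated from background.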
